A study of Mus musculus with 99 samples.

Results

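Serpina1a, Serpina1b, Serpina1c, Serpina1d and Serpina1e are the mouse alpha-1 antitrypsin genes, which lie side by side in the serpin cluster of chromosome 12. Every probe set annotated to one of them was taken, which gave 5 of the 22327 non-control probe sets and covered 4 of the 5 genes, out of 11725 genes with a probe set of their own. Serpina1b has 2 probe sets, 1418282_x_at and 1451513_x_at, Serpina1a has 1420553_x_at, Serpina1c has 1448680_at and Serpina1d has 1449321_x_at. No probe set was annotated to Serpina1e. The cluster was chosen by its measured levels across strains, that is with these values known, so levels by strain and relations to albumin are given as descriptions with no test. Affymetrix gives the suffix _x_at to probe sets of which some probes also match other sequences, so 4 of the 5 probe sets may read more than 1 paralogue.

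The study measured heart RNA of male mice from 99 strains of a hybrid mouse diversity panel, with 1 Affymetrix array per strain and no treatment. The growth protocol gives an age of 16 weeks and a chow diet for all of them, while the age field of the sample records climbs along the sample list and was not used. The arrays fall into 30 BXD strains (inbred from crosses of C57BL/6J and DBA/2J), 15 AXB and 13 BXA strains (both from A/J and C57BL/6J), 11 BXH strains (C57BL/6J and C3H/HeJ), 28 classical inbred strains that include those 4 parents, CAST/EiJ, a wild-derived strain, and B6cC3-1/KccJ. Among the BXD strains, the labels BXD29-Tlr4<lps-2J>/J and BXD24/TyJ-Cep290<rd16>/J name mutant alleles of Tlr4 and Cep290. Each strain was measured once, so the error of a panel is the spread between its strains, technical spread included. The number of arrays limits the precision.

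Alpha-1 antitrypsin is a secreted inhibitor of serine proteases, above all of neutrophil elastase, and hepatocytes make most of what circulates. Primates carry a single antitrypsin gene, whereas mice carry a group of near-identical copies whose reactive centres differ, and inbred mouse strains are known to differ in which copies they have. Alb encodes serum albumin, the most abundant secreted product of hepatocytes, and served here as the measure of liver-type RNA on each heart array.

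The promoter stretches are shown because they show how alike the paralogues are just before their starts in the reference strain. Positions were taken from the RefSeq annotation of GRCm38.p6, which is an assembly of C57BL/6J. Among the serpin genes looked up there by name, the order along chromosome 12 is Serpina10, Serpina6, Serpina16, Serpina1f, Serpina1b, Serpina1d, Serpina1a, Serpina1c, Serpina1e, Serpina11 and Serpina12. Other genes that may lie between them are not listed. All 5 promoters matched by symbol and hold the letters GTTAAT, the first arm of the site bound by the liver factor HNF1, on the gene's strand and not on the other. Searched on both strands, GTTAAT occurs in 6.43% of the 32851 RefSeq promoter windows of 250 bases before the start. Each stretch below is 76 bases on the minus strand, written 5′ to 3′ with GTTAAT in capitals, and lies upstream of the annotated start.
Serpina1b, chr12:103738200-103738275: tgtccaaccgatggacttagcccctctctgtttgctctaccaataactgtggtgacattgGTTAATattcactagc
Serpina1a, chr12:103863625-103863700: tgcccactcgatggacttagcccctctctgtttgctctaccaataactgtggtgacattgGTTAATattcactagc
Serpina1c, chr12:103904962-103905037: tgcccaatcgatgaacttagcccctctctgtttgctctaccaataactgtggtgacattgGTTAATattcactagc
Serpina1d, chr12:103773634-103773709: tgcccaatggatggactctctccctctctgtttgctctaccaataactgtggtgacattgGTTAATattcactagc
Serpina1e, chr12:103956960-103957035: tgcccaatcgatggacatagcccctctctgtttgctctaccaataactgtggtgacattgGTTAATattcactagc

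Counted from 1 at the 5′ end of the stretch, with the base of Serpina1b first, Serpina1a differs from Serpina1b at 3 positions (T3C, A7C, C8T), Serpina1c at 3 (T3C, C8T, G14A), Serpina1e at 3 (T3C, C8T, T17A) and Serpina1d at 7. From position 22 on, the 5 stretches are identical. These are letters of the C57BL/6J reference, and no strain's own sequence was used here. A match to GTTAAT is a description of the letters and not a measured site.

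Values are log2 intensities after RMA, in which the median probe set of each array lay between 3.97 and 4.07, and values near 3 are at the dim end of the scale. Over the 99 arrays the 2 Serpina1b probe sets averaged 5.31 ± 2.22 (1418282_x_at) and 5.35 ± 2.20 (1451513_x_at), Serpina1c 5.16 ± 2.48, Serpina1a 3.49 ± 1.33 and Serpina1d 3.16 ± 0.24 (SD, n = 99 each). Both Serpina1b probe sets and that of Serpina1c, 3 of the 5, were brighter on average than 40% of the probe sets. The 2 Serpina1b probe sets differed on an array by a median of 0.168 and by at most 1.15, so they gave nearly the same reading. Levels of different probe sets are not comparable with each other as amounts of RNA, because probes bind with different strength.

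Alb spanned 3.00 on the BXD20/TyJ array to 13.09 on the CAST/EiJ array, with a median of 4.58. It lay more than 2 above that median, at over 6.58, on 30 arrays, called high-Alb arrays here, and at or below it on the other 69, the low-Alb arrays. Of the low-Alb arrays 20 are BXD, 8 AXB, 6 BXA, 9 BXH, 25 classical and 1 B6cC3-1/KccJ. The mean of the 18 liver markers on the array, Alb among them, was 3.82 to 10.58 on the high-Alb arrays and 3.23 to 4.08 on the low-Alb arrays, while the mean of 5 ventricle markers stayed between 13.05 and 13.30 on every array. In whole-heart RNA a larger share of liver cells and more liver RNA per cell cannot be told apart.

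**Figure D1:**
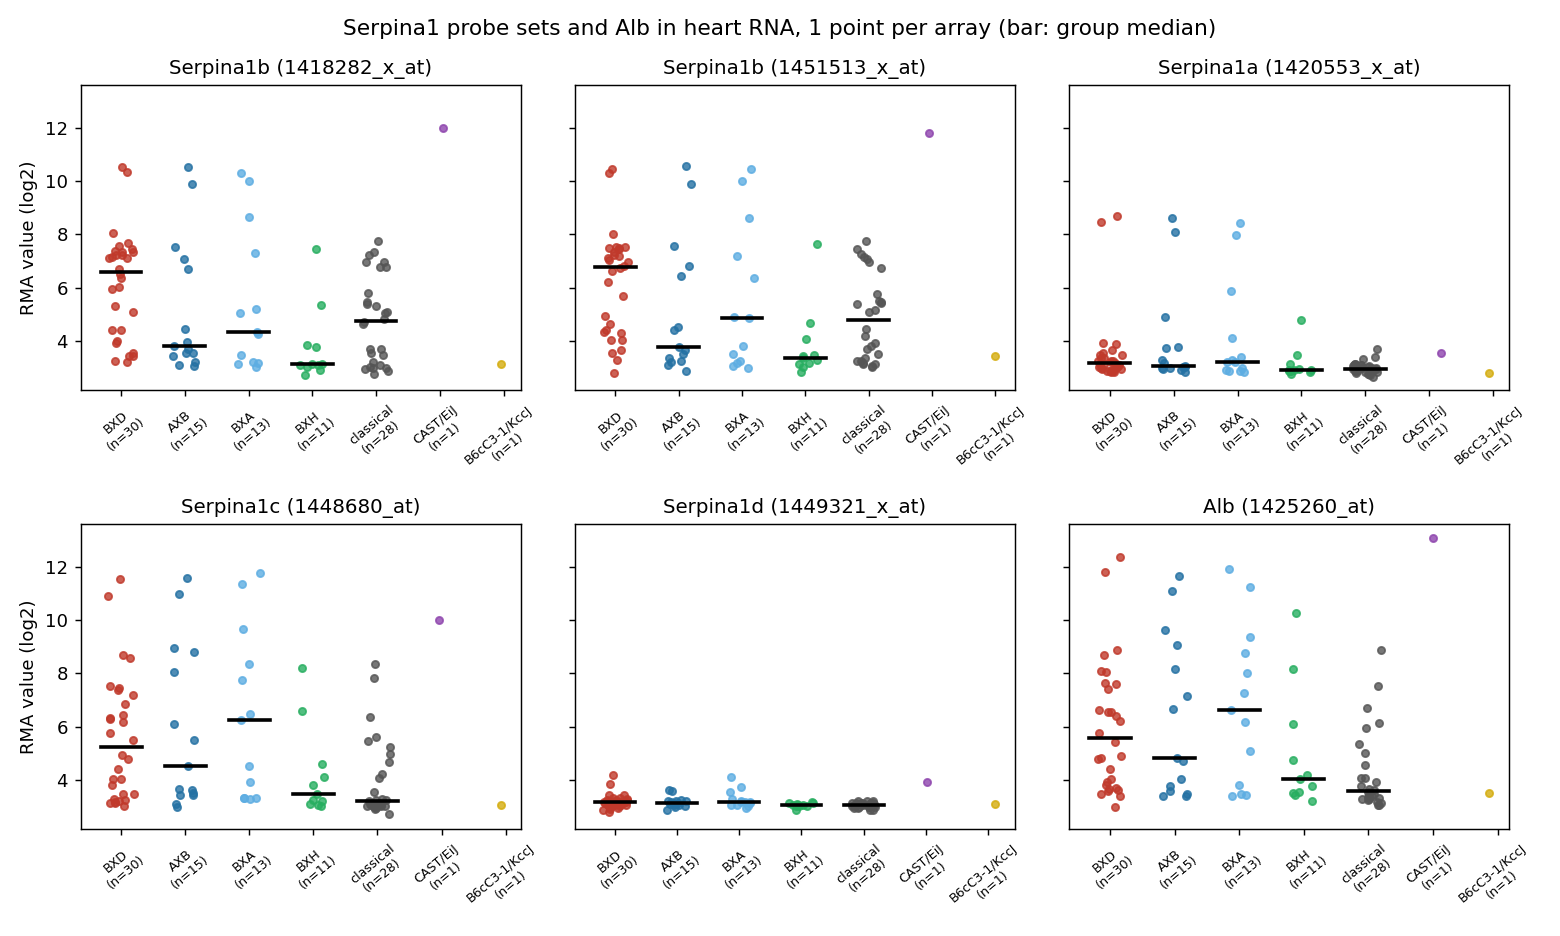
RMA value (log2) of the 5 Serpina1 probe sets and of Alb in each group, with 1 point per array and a bar at the group median. Serpina1d lies near 3 almost everywhere, and Serpina1a rises above 5 on few arrays. The CAST/EiJ array, at 12.00 for Serpina1b (1418282_x_at) and 3.57 for Serpina1a, has a different balance of probe set readings. Whether its transcripts match the probes was not tested.

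Serpina1c followed Alb across the whole set of arrays. Its Spearman rho with Alb was 0.93 over the 99 arrays (Pearson r 0.979), 0.81 over the 69 low-Alb arrays and 0.93 over the 30 high-Alb arrays. Within groups rho was 0.94 in BXD, 0.98 in AXB and BXA as 1 group, 0.95 in BXH and 0.71 in the classical strains. Leaving out the 2 arrays farthest from the median Alb, CAST/EiJ and BXD12/TyJ, gave r = 0.982 over the rest. The points share arrays, and every array is a different strain, so these values describe the set and carry no p-value.

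Serpina1a also followed Alb, but from a dimmer start. Its rho with Alb was 0.85 over all arrays, 0.57 over the low-Alb arrays, where its level stayed between 2.67 and 3.55, and 0.88 over the high-Alb arrays. Serpina1d moved least, with a rho of 0.51 over all arrays, 0.22 over the low-Alb arrays and a highest level of 4.20 on the BXD12/TyJ array. The low readings of Serpina1a and Serpina1d on low-Alb arrays sit at the dim end of the scale, and with no scanner files here their distance from background is not known.

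Serpina1b followed Alb only on part of the arrays. For 1418282_x_at rho with Alb was 0.69 over all arrays, 0.44 over the low-Alb arrays and 0.88 over the high-Alb arrays, and for 1451513_x_at it was 0.67, 0.39 and 0.87 on the same sets. The groups were unlike each other, with a rho for 1418282_x_at of 0.92 in AXB and BXA, 0.85 in BXH, 0.62 in the classical strains and 0.46 in BXD. Without BXD12/TyJ and BXD42/TyJ, the BXD arrays farthest from that panel's median Alb, r in BXD fell to 0.35, against 0.61 with them.

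**Figure D2:**
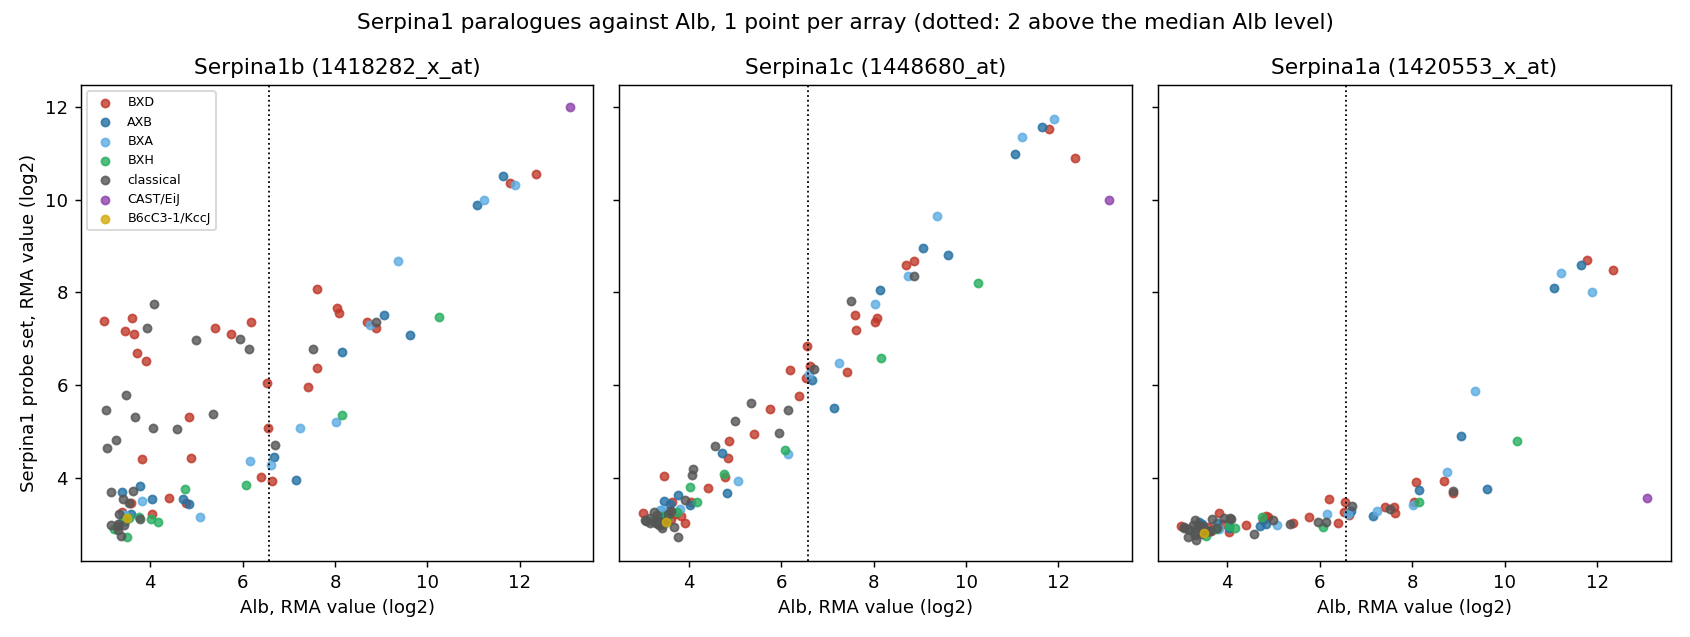
RMA values (log2) of Serpina1b (1418282_x_at), Serpina1c and Serpina1a on the vertical axes against Alb, with 1 point per array coloured by group and a dotted line at 2 above the median Alb level. Serpina1c rises with Alb (rho 0.93), though some arrays lie lower for their Alb, such as CAST/EiJ (9.99 at 13.09) and BXH14/TyJ (8.21 at 10.26). Left of the dotted line Serpina1b spreads from 2.72 to 7.76.

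The parents of the panels differed in Serpina1b. DBA/2J had 7.76 in 1418282_x_at and 7.77 in 1451513_x_at, against 2.76 and 3.09 in C57BL/6J, a log2 difference of 4.68 in 1451513_x_at between single arrays. A/J had 3.23 and 3.17 in the same probe sets and C3H/HeJ 2.88 and 3.25, close to C57BL/6J. Alb was low in all 4 parents, at 4.09 in DBA/2J, 3.32 in A/J, 3.31 in C3H/HeJ and 3.36 in C57BL/6J. Serpina1c was 4.20 in DBA/2J, against 2.98 in C57BL/6J. Serpina1a was 3.11 in DBA/2J, against 2.99 in C57BL/6J, so the wide gap between these strains lay in the Serpina1b probe sets. As _x_at probe sets these may also read other paralogues, and Serpina1e has no probe set. Which copy gave the DBA/2J signal, and whether strain variants lie under the probes, was not tested.

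On the 20 low-Alb BXD arrays Serpina1b (1418282_x_at) spanned 3.24 to 7.44 with a median of 5.68, which is nearly the distance between the parents. Above 7 lay 7 of them: BXD24/TyJ at 7.10, BXD40/TyJ at 7.11, BXD24/TyJ-Cep290<rd16>/J at 7.17, BXD32/TyJ at 7.22, BXD33/TyJ at 7.35, BXD20/TyJ at 7.38 and BXD27/TyJ at 7.44. Below 4 lay 5: BXD5/TyJ at 3.24, BXD31/TyJ at 3.26, BXD34/TyJ at 3.46, BXD29-Tlr4<lps-2J>/J at 3.46 and BXD21/TyJ at 3.58. The other 8 lay between 4.02 and 6.69, and no gap between neighbouring arrays of the panel exceeded 0.74. Their Alb was 6.39 in BXD36/TyJ (4.02 in Serpina1b), 4.88 in BXD2/TyJ (4.44) and 6.55 in BXD18/TyJ (5.08). It was 4.84 in BXD15/TyJ (5.31), 6.54 in BXD19/TyJ (6.05) and 3.83 in BXD38/TyJ (4.41). BXD28/TyJ (6.52) and BXD9/TyJ (6.69) had Alb at 3.91 and 3.71. Between 4.41 and 6.52 in Serpina1b lay only arrays with Alb at 4.84 or above. BXD20/TyJ had the lowest Alb of all 99 arrays, at 3.00, beside a Serpina1c of 3.24, and yet was among the highest in Serpina1b. Alb spanned 3.00 to 6.19 on the 7 arrays above 7 in Serpina1b and 3.38 to 4.78 on the 5 arrays below 4, so the ends of the panel overlapped in Alb.

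The other panels showed no such spread at low Alb. The 14 low-Alb AXB and BXA arrays spanned 3.04 to 4.36 with a median of 3.33 in 1418282_x_at, and the 9 low-Alb BXH arrays spanned 2.72 to 3.85 with a median of 3.12. Set against the midpoint of DBA/2J and C57BL/6J, 5.26, 11 of 20 low-Alb BXD arrays lay above it. So did 0 of 14 in AXB and BXA, 0 of 9 in BXH and 9 of 25 among the classical strains. The near-identical BXD24/TyJ and BXD24/TyJ-Cep290<rd16>/J both count among the 11. In 1451513_x_at, with a midpoint of 5.43, it was 10 of 20 in BXD, 0 of 14 in AXB and BXA and 0 of 9 in BXH. On high-Alb arrays the panels overlapped, with 3.94 to 10.55 on 10 BXD arrays and 3.95 to 10.51 on 14 AXB and BXA arrays.

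**Figure D3:**
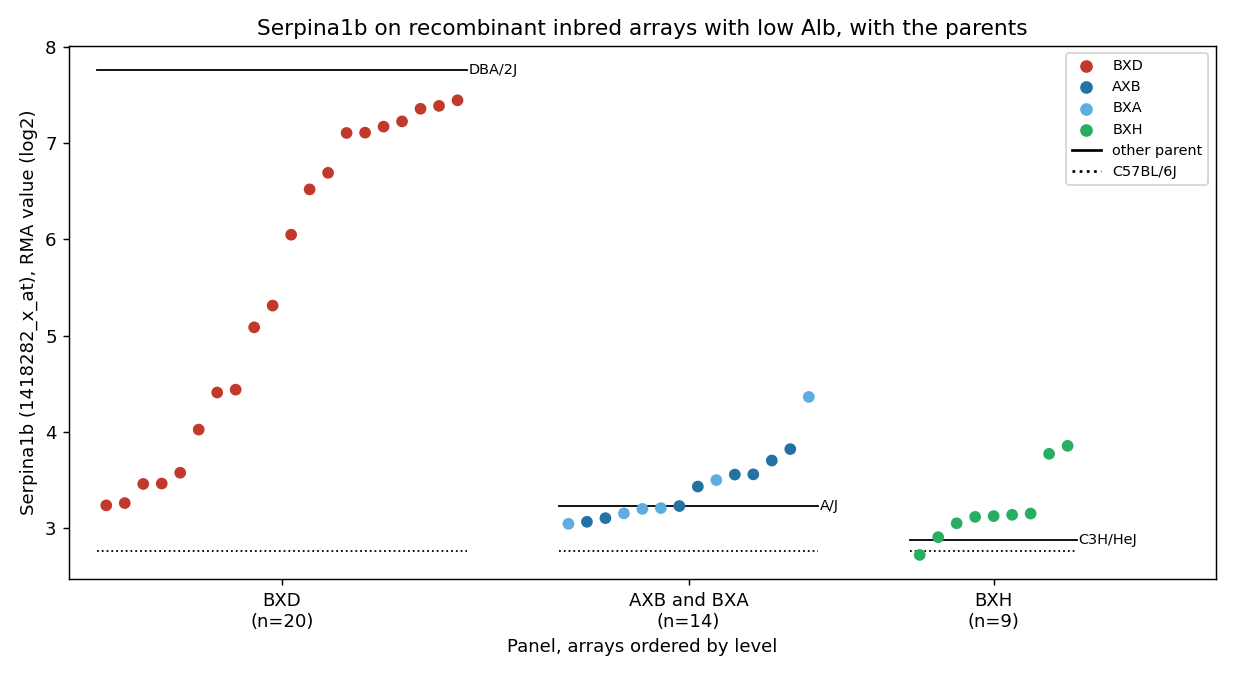
Serpina1b (1418282_x_at, RMA value, log2) on the low-Alb arrays of each recombinant inbred panel, ordered by level within a panel, with a solid line at the parent other than C57BL/6J and a dotted line at C57BL/6J. The 20 BXD arrays run from 3.24 to 7.44, between parents at 7.76 and 2.76, while the 14 AXB and BXA arrays and the 9 BXH arrays stay at or below 4.36.

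Near-identical strains gave a check on single arrays. BXD24/TyJ and BXD24/TyJ-Cep290<rd16>/J, a derivative that carries a retinal degeneration mutation, had 7.10 and 7.17 in Serpina1b at an Alb of 3.64 and 3.46. The 3 AXB19 sublines differed in Serpina1b, with 7.09 in AXB19/PgnJ, 6.71 in AXB19a/PgnJ and 3.70 in AXB19b/PgnJ, and their Alb was 9.61, 8.14 and 3.38 in that order. Serpina1c in those sublines was 8.81, 8.05 and 3.09, so there both paralogues went with Alb.

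In the planned comparison of BXD with AXB and BXA, which share C57BL/6J and differ in the other parent, near-identical strains were averaged to 1 value and all 22327 probe sets were fitted with limma. No Serpina1 probe set passed a Benjamini-Hochberg adjusted p under 0.05, where 7.48% of all probe sets did (1669 probe sets). Serpina1b (1418282_x_at) averaged 6.15 ± 1.99 in BXD (SD, n = 29 families) and 5.28 ± 2.59 in AXB and BXA (SD, n = 26 families), a difference of 0.87 with an SE of 0.60 and an adjusted p of 0.458 in limma. Probe set 1451513_x_at gave a difference of 0.84 with an SE of 0.61 and an adjusted p of 0.485 in limma. Serpina1c, Serpina1a, Serpina1d and Alb differed by -0.43, -0.51, -0.03 and -0.45, all with adjusted p-values over 0.5 in limma.

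The result for Serpina1b changed once the liver signal entered the fit. With Alb as a covariate, where 7.72% of all probe sets passed, 2 of the 5 Serpina1 probe sets did, both of them Serpina1b. The BXD families were then higher by 1.19 in 1418282_x_at (SE 0.35, limma adjusted p = 0.0226) and by 1.16 in 1451513_x_at (SE 0.34, limma adjusted p = 0.0261), and Serpina1c differed by 0.01 with a 95% interval of -0.22 to 0.25. That fit used 1 Alb slope for both panels, so its differences average over the range of Alb, and whether the slopes differ was not tested. On high-Alb arrays 1418282_x_at averaged 7.51 in BXD (n = 10 arrays) and 7.21 in AXB and BXA (n = 14 arrays). On the low-Alb arrays alone, where 3.69% of all probe sets passed, both Serpina1b probe sets did and the other 3 Serpina1 probe sets did not. Serpina1b (1418282_x_at) averaged 5.43 ± 1.64 in BXD (SD, n = 19 families) and 3.42 ± 0.37 in AXB and BXA (SD, n = 14 families), a difference of 2.01 with an SE of 0.43 and a limma adjusted p of 0.00514, and 1451513_x_at differed by 2.09 with an SE of 0.43 and a limma adjusted p of 0.00368. Since the cluster was chosen with its values known, these p-values are not independent evidence of the direction.

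On the low-Alb arrays the panels also differed somewhat in Alb. There Alb averaged 4.65 ± 1.17 in BXD and 4.04 ± 0.84 in AXB and BXA, and Serpina1c 4.32 ± 1.26 and 3.57 ± 0.47 in the same order (SD, n = 19 and 14 families). The differences of 0.61 in Alb and 0.75 in Serpina1c had limma adjusted p-values of 0.388 and 0.235. The spread within BXD was wide and that within AXB and BXA narrow, and the overlap of the panels was confined to the lower end of BXD.

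The gap between the paralogues within a family, a measure chosen after the values had been seen and given with no test, had a higher mean in BXD than in AXB and BXA. Serpina1b (1418282_x_at) minus Serpina1c was 0.49 ± 1.85 in BXD (SD, n = 29) and -0.81 ± 0.74 in AXB and BXA (SD, n = 26). Among the 4 such gaps, of both Serpina1b probe sets over Serpina1c and over Alb, the panel differences ran from 1.27 to 1.31. The sample titles are numbers that may follow the order of collection. Among families up to the median title number the gap over Serpina1c differed between the panels by 1.36 (n = 16 and 12), and above it by 1.26 (n = 13 and 14). Without a covariate, Serpina1b itself differed by 0.08 up to the median title number and by 1.39 above it, with limma adjusted p-values of 0.978 and 0.525.

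**Figure D4:**
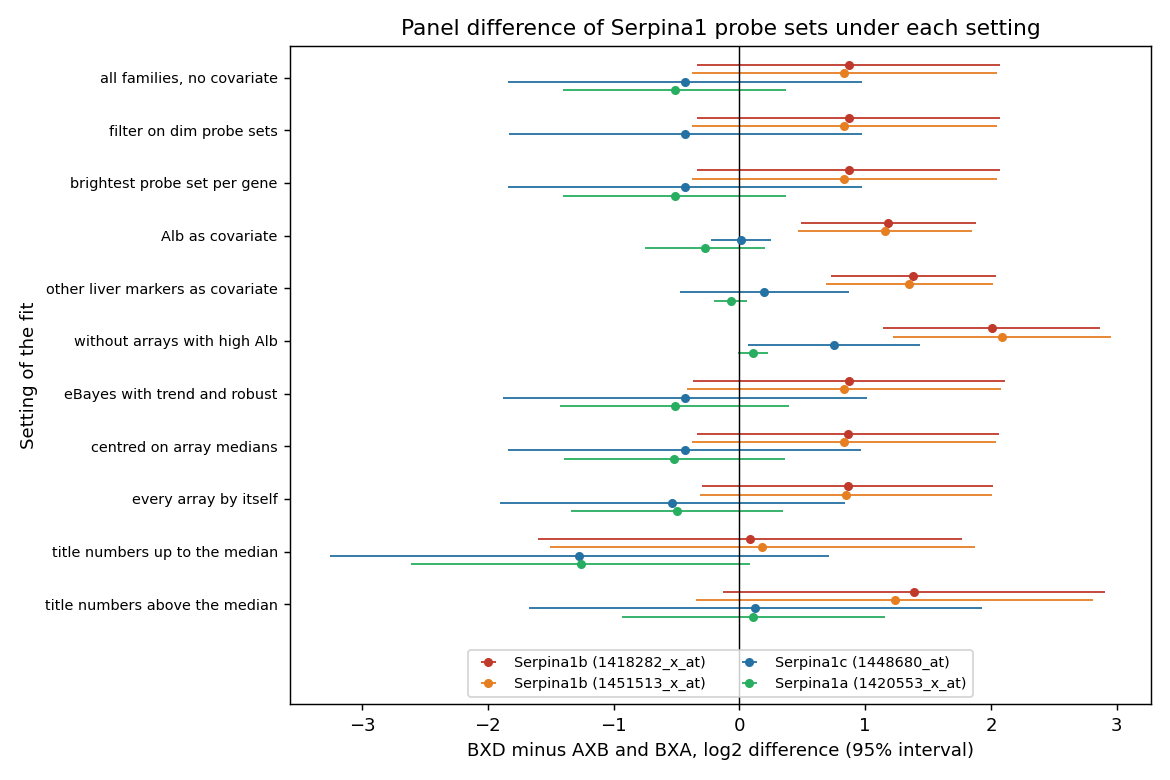
Difference of BXD minus AXB and BXA (log2, horizontal axis, with 95% intervals from limma) for 4 Serpina1 probe sets under each setting of the fit (vertical axis); Serpina1a is absent where the filter on dim probe sets removes it. The Serpina1b intervals clear 0 with Alb or the other liver markers as a covariate and without high-Alb arrays, and span 0 in the other settings; that of Serpina1c clears 0 only without high-Alb arrays, where its adjusted p was 0.235.

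AXB and BXA, reciprocal panels from the same parents, did not differ detectably in any Serpina1 probe set. Serpina1b (1418282_x_at) averaged 5.07 ± 2.60 in AXB and 5.48 ± 2.67 in BXA (SD, n = 13 families each), a difference of -0.41 with a 95% interval of -2.40 to 1.57. Limma called 0 of the 5 probe sets and 0% of all probe sets, with 2008 at an unadjusted p under 0.05. Alb differed by -0.61 with a 95% interval of -2.81 to 1.58. These intervals are too wide to show that the panels were alike.

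BXH strains had a lower mean Serpina1b than the classical strains, but not beyond the spread between strains. Serpina1b (1418282_x_at) averaged 3.79 ± 1.42 in BXH (SD, n = 11) and 4.80 ± 1.64 in the classical strains (SD, n = 28), a difference of -1.02 with an SE of 0.54 and a limma adjusted p of 0.618. Limma called 0 of the 5 Serpina1 probe sets in this comparison, where 0.103% of all probe sets passed (23 probe sets). Alb leaned the other way, with 4.99 ± 2.28 in BXH and 4.26 ± 1.50 in the classical strains. The mean of 6 airway markers had a median of 7.30 over the BXH arrays and 4.06 over the classical arrays, and its part in the result was not tested. The title numbers of these groups overlap only in part, with 7 of 11 BXH arrays below the first classical array, so group and title order cannot be told apart on those arrays.

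The 28 classical strains are described in 3 stretches of Serpina1b (1418282_x_at), set after the values had been seen at its gaps of 0.97 and 0.92. In 1451513_x_at the upper gap was also 0.97, but the lower gap was only 0.28, so the middle and lower stretches run together there. Both gaps are smaller than the largest difference of 1.15 between the 2 probe sets on an array, so strains at the edges of neighbouring stretches are not ordered either. The upper stretch held 7 strains: DBA/2J at 7.76, RIIIS/J at 7.36, PL/J at 7.24, I/LnJ at 6.99, NOD/ShiLtJ at 6.97, CBA/J at 6.78 and BALB/cJ at 6.77. PL/J and DBA/2J reached these levels at a low Alb of 3.93 and 4.09, whereas RIIIS/J and BALB/cJ had Alb at 8.88 and 7.52. The remaining upper strains had Alb at 5.95 in I/LnJ, 4.99 in NOD/ShiLtJ and 6.14 in CBA/J.

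The middle stretch held 9 strains between 4.65 and 5.80. It ran from SEA/GnJ at 5.80 over CE/J at 5.46, LP/J at 5.38, AKR/J at 5.31, FVB/NJ at 5.08, BTBR T<+> tf/J at 5.06, KK/HlJ at 4.82 and SWR/J at 4.71 to BUB/BnJ at 4.65. CE/J, KK/HlJ and BUB/BnJ had Alb at 3.05, 3.25 and 3.07, among the lowest of all arrays, and Serpina1c at 3.09, 3.26 and 3.08. SEA/GnJ and AKR/J had Alb at 3.48 and 3.67 and Serpina1c at 3.04 and 2.95. SWR/J, by contrast, was a high-Alb array, with Alb at 6.70 and Serpina1c at 6.36. Alb and Serpina1c were 5.36 and 5.62 in LP/J, 4.58 and 4.68 in BTBR T<+> tf/J and 4.06 and 4.08 in FVB/NJ. Neighbours within a stretch lie closer than the largest difference between the 2 Serpina1b probe sets on an array and are not ordered by these data.

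The lower stretch held 12 strains between 2.76 and 3.72, all with Alb at or below 3.77. NZB/BlNJ had 3.72, NON/ShiLtJ 3.70, LG/J 3.55, C57L/J 3.47, A/J 3.23 and NZW/LacJ 3.12. MA/MyJ had 3.02, C58/J 2.99, SM/J 2.98, 129X1/SvJ 2.97, C3H/HeJ 2.88 and C57BL/6J 2.76. Serpina1c stayed between 2.73 and 3.29 in this stretch. No strain of the lower stretch was a high-Alb array, so a low Serpina1b at high Alb was not seen among the classical strains.

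**Figure D5:**
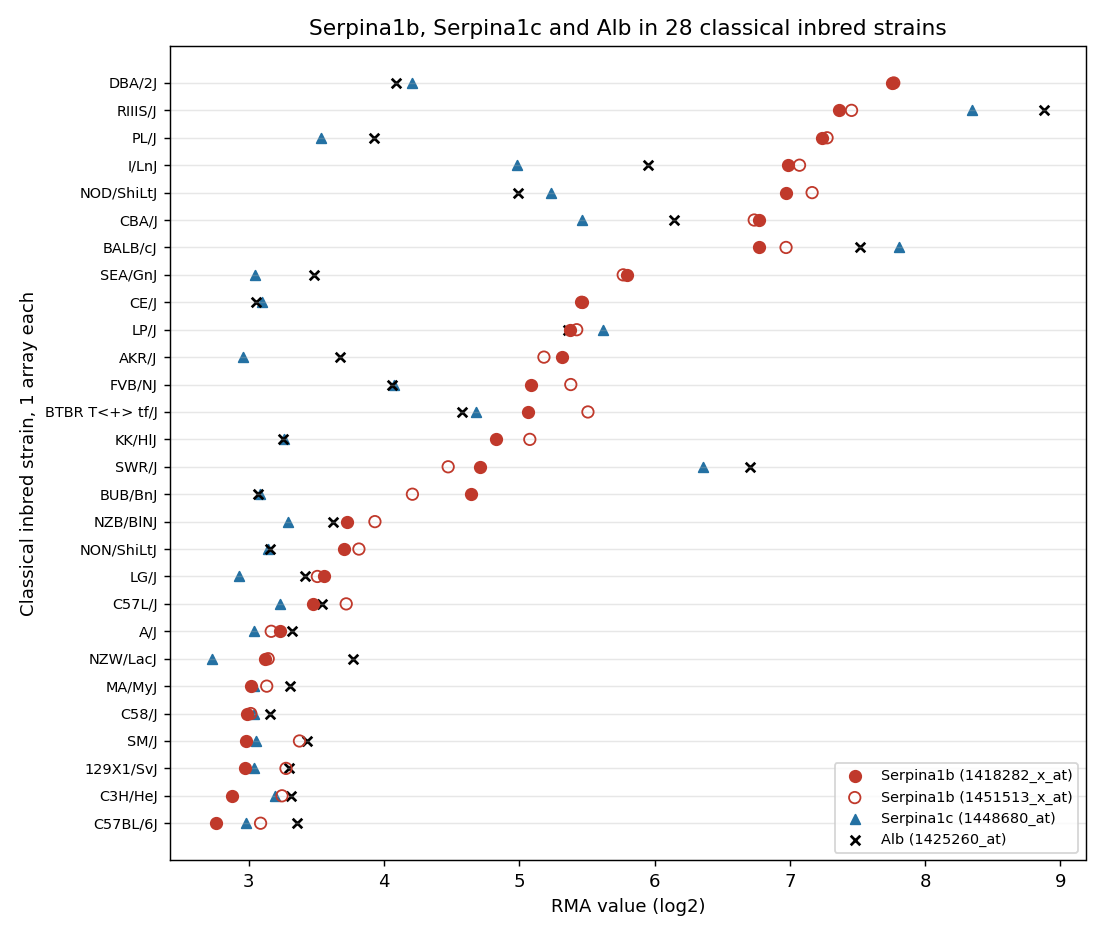
RMA values (log2, horizontal axis) of both Serpina1b probe sets, Serpina1c and Alb in the 28 classical inbred strains, 1 array each, ordered from top to bottom by Serpina1b (1418282_x_at). PL/J and DBA/2J combine Serpina1b above 7 with Alb at 3.93 and 4.09, and the 12 strains at the bottom have all 3 genes below 4.

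CAST/EiJ had the highest Alb and an unlike set of readings for the paralogues. Its Serpina1b was 12.00 (1418282_x_at) and 11.81 (1451513_x_at), against 9.89 to 10.55 and 9.91 to 10.58 on the 6 other arrays with Alb above 11. Serpina1a was 3.57 in CAST/EiJ, against a median of 8.45 and a highest level of 8.69 on those 6 arrays, and Serpina1c was 9.99, against 10.90 to 11.74. Serpina1d was 3.94, inside the range of 3.59 to 4.20 on the 6 arrays. Relative to Alb, Serpina1a stood at -9.52 in CAST/EiJ, against -3.90 to -2.79, while of 17 other liver markers 0 stood below the range of the 6 arrays, 7 within it and 10 above it. CAST/EiJ is 1 array of a strain from another subspecies, and whether its transcripts match the probes was not tested.

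The genes with the pattern most like 1451513_x_at, the cluster's probe set with the highest mean, were liver genes over all arrays and mostly other genes at low Alb. Over the 99 arrays the 10 nearest probe sets were those of Bhmt (Spearman rho 0.69), Alb, Apoc3, Apoa1 with 2 probe sets, Apoh, Cyp3a11, Mug1, Mup3 and Apoa2 (0.62). Over the 69 low-Alb arrays they were Serhl (0.50), Poldip3 with 2 probe sets, Igf1, Dtwd1, Trip11, Sorl1, Rcc2, Dnajc10 and F2r (0.45). That second ranking depended on the probe set: with the other Serpina1b probe set, 1418282_x_at, as the reference, the liver gene Bhmt came first on the low-Alb arrays (0.50), close to Atxn10 (0.50) and Serhl (0.49), and Alb had a rho of 0.44. With Serpina1c as the reference, Alb came first on both sets of arrays, at 0.93 and 0.81. Both of these references were added after the values had been seen. The order given above lists serpins only, so it cannot show whether any of these genes lies near the cluster, and their positions were not looked up. Weak correlations over so many probe sets are given as a ranking only.

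Of 14 other clade A serpins, most of them in the same chromosomal cluster, 4 had a probe set of their own: Serpina3n, Serpina5, Serpina10 and Serpina12. Serpina3n, an acute-phase inhibitor of the antichymotrypsin type, passed in BXD minus AXB and BXA, where 7.48% of all probe sets did. It averaged 7.03 ± 1.04 in BXD (SD, n = 29 families) and 6.30 ± 0.48 in AXB and BXA (SD, n = 26 families). The difference was 0.73 with an SE of 0.22 and a limma adjusted p of 0.0273. It had 9.31 in DBA/2J, the third highest of the 99 arrays, 5.38 in A/J and 7.33 in C57BL/6J, and 10.05 in CAST/EiJ, the highest. Its Spearman rho with Alb was -0.02 over the 99 arrays. Serpina5, which inhibits activated protein C, and Serpina12, known as vaspin, stayed below 3.57 on every array and did not pass in any comparison. Serpina10, the protein Z-dependent protease inhibitor, reached 6.06 in CAST/EiJ and did not pass either.

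The other lists around antitrypsin showed no called change between panels. Of all probe sets, 7.48% passed in BXD minus AXB and BXA, 0% in AXB minus BXA and 0.103% in BXH minus classical. Counts of 0 in lists this short are near those shares and are no result about these genes. The neutrophil proteases it inhibits, Elane, Prtn3 and Ctsg, lay between 2.90 and 3.84 on every array, and 0 of 3 passed in any comparison. Of 7 genes for the folding, export and uptake of secreted serpins, among them the cargo receptor Lman1, the chaperones Calr and Canx and the uptake receptor Lrp1, 0 passed, and their median difference of BXD minus AXB and BXA was -0.04 beside a median of 0.00 over all probe sets. Of the 3 measured liver factors Hnf4a, Foxa2 and Cebpa, 0 passed. Of the 18 liver markers 0 passed in BXD against AXB and BXA, with a median difference of -0.44. Serpina1b did not pass in that fit either, so the signs of these differences are not compared.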

How the data were processed

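Heart RNA of 99 mouse strains was measured on 1 Affymetrix array each. The deposited values are log2 intensities that the authors made with GCOS and RMA, per the submitters' processing notes, in which no versions are given. Genes were named from GEO's platform annotation, in which 17783 of the 22327 non-control probe sets carry a single symbol, and promoters from RefSeq (GRCm38.p6). Scanner files were not used here, so signal over background per array is unknown. Groups follow the strain labels. Near-identical strains (AXB19, BXD24) were averaged. Each comparison was fitted with limma 3.58.1 (lmFit, eBayes) in R 4.3.3 on all 22327 probe sets, with Benjamini-Hochberg adjustment and a threshold of 0.05, and the fit was tested on simulated data. The alternatives were a filter at the 40th percentile of the mean (3.59), 1 probe set per gene, Alb or the other liver markers as covariate, low-Alb arrays only, trend and robust eBayes, median centring, single arrays in place of families and splits by title number. Members, lists and the Alb limit were chosen with earlier results of these data known. Named are all Serpina1 probe sets, Alb, the 10 probe sets of other genes most like the brightest Serpina1 probe set by Spearman rho on all and on low-Alb arrays, called list members and the measured serpin neighbours. For a gene outside the cluster the brightest probe set with that symbol alone stands.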

Additional observations from a re-analysis of the deposited data

Results flagged for a closer look

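The CAST/EiJ array, which entered no comparison because it is the only wild-derived strain, had a Serpina1b level of 12.00 in 1418282_x_at. That is above all 28 classical arrays, of which DBA/2J was the highest at 7.76. Alb on the same array was 13.09, the highest of the 99. The part that liver RNA and probe match in this strain have in the value was not tested.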

How the results depend on the processing

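The BXD difference in Serpina1b passed the threshold with Alb as covariate (1.19 and 1.16 for 1418282_x_at and 1451513_x_at), with the other liver markers as covariate (1.38 and 1.35) and without high-Alb arrays (2.01 and 2.09). The cluster and the Alb limit were chosen with these values known, so passing there is no independent support. No sign change below passed the threshold on either side, and the cause was not tested. In BXD minus AXB and BXA, Serpina1c became 0.014 with Alb as covariate, 0.20 with the other liver markers, 0.75 without high-Alb arrays and 0.13 above the median title number. Serpina1a became 0.11 both without high-Alb arrays and above the median title number, and Serpina1d 0.0087 with Alb, 0.038 with the other liver markers and 0.037 above the median title number. Below that median Serpina1b differed by 0.08 and 0.18 only. In AXB minus BXA, Serpina1b became 0.11 and 0.046 with Alb, 0.022 and 0.052 without high-Alb arrays, and 0.25 and 0.24 at low title numbers. There Serpina1a became 0.24 with Alb, 0.012 with the other liver markers, 0.024 without high-Alb arrays and 0.67 at low title numbers, and Serpina1c 0.12 at low title numbers. In BXH minus classical, Serpina1a became -0.047 with the other liver markers, -0.026 without high-Alb arrays and -0.021 in the shared range of title numbers. Serpina1c became -0.42 with Alb, -0.58 with the other liver markers, -0.080 without high-Alb arrays and -0.21 in the shared range, and Serpina1d 0.0065 without high-Alb arrays.

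Called probe sets in BXD minus AXB and BXA numbered 987 with 1 probe set per gene, 824 without high-Alb arrays, 606 up to and 188 above the median title number, against 1669. In BXH minus classical they numbered 15 with 1 probe set per gene, 12 with the other liver markers, 8 without high-Alb arrays and 2 in the shared range, against 23, and fewer probe sets or arrays enter each but the second. With the other liver markers in place of Alb, rho was 0.80 for Serpina1a and 0.86 for Serpina1c over all arrays, and 0.43, 0.59 and 0.30 for Serpina1a, Serpina1c and Serpina1b (1418282_x_at) over low-Alb arrays. With the limit at 1 above the median Alb it was 0.45 for Serpina1a, 0.72 for Serpina1c and 0.28 for Serpina1b (1451513_x_at). Without high-Alb arrays the SD was 1.58 and 1.57 for the Serpina1b probe sets, 0.16 for Serpina1a, 0.95 for Serpina1c and 0.10 for Serpina1d. All other values kept their sign and their side of the threshold. No paired analysis was possible because the labels give no replicate numbers, and the numbers assigned here tie no strains of different groups together. With 1 array per strain, a strain's own error is not known.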
